A study of Mus musculus with 40 samples.

Results

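The genes described here are 10 markers of the muscle lineage: the transcription factors Pax7, Myf5, Myod1, Myog, Myf6 and Mef2c, the developmental myosin heavy chains Myh3 and Myh8, and the neuromuscular junction genes Chrna1 and Musk. They were taken by gene symbol from a table of 52636 genes, and each of the 10 matched 1 row. The 10 were chosen with earlier results of these data known. The RNA came from brown adipose tissue of male C57BL/6 mice, aged 10 to 12 weeks in the series text and 10 to 14 weeks in the sample protocol. Every mouse received an antibody by intraperitoneal injection. Mice called control received a ragweed isotype antibody at 40 mg/kg, and mice called Jag antibody received antibodies to Jag1 and Jag2 at 20 mg/kg each. Tissue was taken 15 h, 5 d or 7 d later. At 7 d a further group on each antibody had also received daily T4 at 1 ug/g and T3 at 0.05 ug/g from day 2, called hormone below. This gave 8 groups of 5 mice, with control mice numbered 1 to 5 and Jag antibody mice 6 to 10 in every group. Whether a number links mice of different groups is not given, and each mouse was sequenced as 1 library of 50 base single-end reads.

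Skeletal muscle is built and repaired by stem cells, the satellite cells, which are marked by Pax7. When these cells are activated, the basic helix-loop-helix factors Myf5 and Myod1 commit them to the muscle lineage. Myog then drives differentiation into fibres, and Myf6, also called MRF4, is the member of that family that mature fibres keep. Mef2c is a partner of these factors and is also expressed in endothelial and lymphoid cells. New or regenerating fibres pass through embryonic (Myh3) and perinatal (Myh8) myosin before they switch to adult isoforms. Brown adipocytes and skeletal muscle share a precursor that has expressed Myf5, but mature brown fat is not known for expressing these regulators. Jag1 and Jag2 are ligands of Notch receptors, and Notch signalling is known to keep satellite cells quiescent.

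Library totals ran from 12217623 to 36511893 counts with a median of 18949808. Ucp1, the uncoupling protein that defines brown fat, had 12504 to 381309 counts in every library. The amount of mature muscle RNA differed widely between mice of the same group. Levels were set per 1000000 counts (CPM) of a library total scaled by its TMM size factor from edgeR. They are therefore not shares of the raw library total. A score of mature muscle was taken as the mean log2 CPM of 8 fast fibre genes: the myosins Myh1 and Myh4, Mylpf, the actin Acta1, the troponins Tnni2 and Tnnt3, the creatine kinase Ckm and the calcium pump Atp2a1. It is called the muscle score and ran from -2.69 to 13.71. It was above 5 in 19 mice, the lowest of these at 5.10, and at most 2.71 in the other 21 mice. Control mouse 5 at 5 d and Jag antibody mouse 6 at 7 d had the highest scores, 13.71 and 12.33. In these bulk samples, fewer cells of a type and less RNA per cell cannot be told apart.

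Detection of the muscle regulators rested on few mice. Pax7 had 121 counts over all 40 libraries, with 0 in 27 of them and at most 23 in a mouse. Myf5 had 101 counts in all, with 0 in 28 mice and at most 29. Myod1 and Myog were each at 0 in 22 mice and reached 361 and 539 counts. Myf6 was at 0 in 19 mice and reached 1865 counts. Mef2c had 107 counts or more in every mouse. Myh3 was at 0 in 17 mice, Myh8 in 24, Chrna1 in 16 and Musk in 8. The 5 control mice at 5 d held 85.4% of all Myh3 counts, 90.8% of Myh8, 72.6% of Chrna1 and 65.4% of Myog, but 21.2% of Mef2c and 16.2% of Musk. The filter on low counts kept 7 of the 10 genes for testing. Pax7, Myf5 and Myh8 did not pass it and have values without a test.

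**Figure D1:**
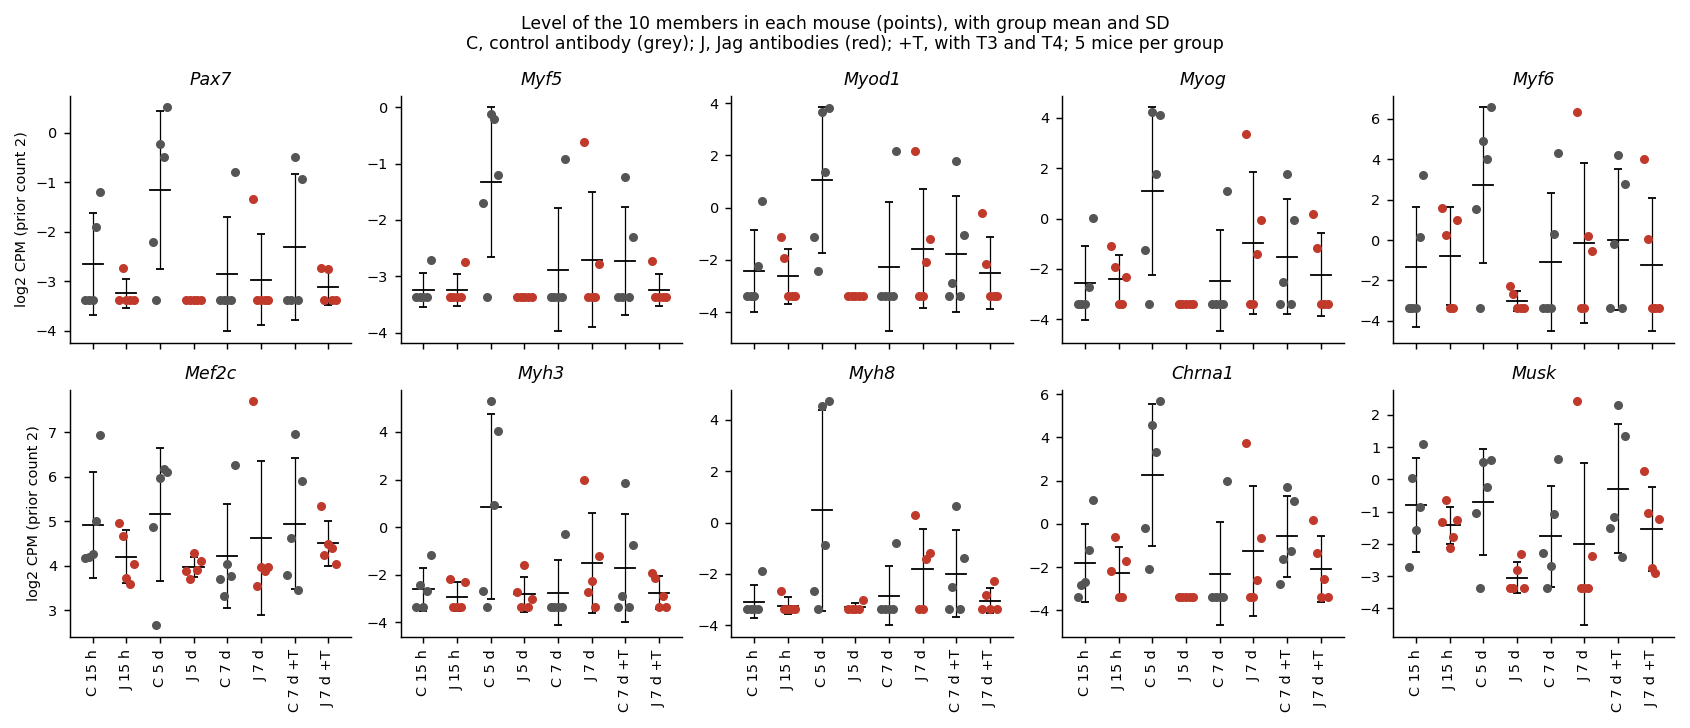
Each panel shows 1 of the 10 genes, with the level in each mouse as log2 CPM (prior count 2) on the vertical axis and the 8 groups on the horizontal axis. Points are mice, horizontal lines are group means and bars are SD (n = 5). The Jag antibody mice at 5 d lie on the floor of -3.37 for Pax7, Myf5, Myod1, Myog and Chrna1, while the control mice of that day spread over the whole range.

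At 5 d the regulators of myogenesis, embryonic myosin and the muscle acetylcholine receptor were lower in Jag antibody than in control mice. Of the 7 genes tested, 5 fell (Myod1, Myog, Myf6, Myh3 and Chrna1) and none rose, at an adjusted p under 0.05 in edgeR's quasi-likelihood test. Over all 17079 genes tested, 8.02% were called in this comparison and 5.93% were called lower. Mef2c and Musk were lower in the pooled counts but did not pass.

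Among the stem cell and commitment factors at 5 d, Pax7 had 4, 0, 22, 23 and 16 counts in control mice 1 to 5 and 0 in all Jag antibody mice. Pooled over the group, Pax7 was at least 18.4-fold lower in Jag antibody mice, set against a floor of 3 counts per group. Myf5 had 7, 0, 24, 29 and 4 counts in the control mice and 0 in all Jag antibody mice, at least 18.1-fold lower. Control mouse 2 was at 0 for both, so the groups touched. Myod1, the commitment factor, had 12, 2, 361, 93 and 168 counts in the control mice and 0 in every Jag antibody mouse. It was at least 179.6-fold lower (adjusted p = 0.0237), and the groups did not overlap.

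Among the differentiation factors, Myog had 11, 0, 539, 123 and 204 counts in the control mice at 5 d and 0 in all Jag antibody mice. It was at least 248-fold lower (adjusted p = 0.0199), although control mouse 2 was also at 0. Myf6, the regulator of mature fibres, had 93, 0, 863, 606 and 1121 counts against 2, 1, 0, 0 and 0. With 3 counts in the Jag antibody group, the pooled ratio was 758 with a counting interval of 259 to 3676 (adjusted p = 0.0431). Mef2c had 979, 137, 1813, 2691 and 816 counts against 273, 209, 421, 291 and 638. Its log2 fold change was -1.59 (SE 0.77, adjusted p = 0.212), and the lowest control mouse lay below every Jag antibody mouse.

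Embryonic myosin Myh3 had 2, 0, 1146, 68 and 197 counts in control mice and 1, 0, 5, 0 and 1 in Jag antibody mice at 5 d. Its log2 fold change was -7.39 (SE 1.73, adjusted p = 0.00963). Perinatal myosin Myh8 had 2, 0, 672, 17 and 318 counts against 0, 0, 0, 0 and 1, a pooled ratio of 855 with a counting interval of 153 to 33790. Both genes were highest in control mice 3 and 5. Control mouse 2 lay within the range of the Jag antibody mice for both genes, and control mouse 1 did so for Myh3. Myh3 and Myh8 lie in a cluster of closely related myosin genes, so short reads may have been shared with their neighbours, and their counts are uncertain to that extent.

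At the neuromuscular junction, Chrna1 encodes the alpha subunit of the muscle acetylcholine receptor, and Musk encodes the receptor kinase that gathers it under the nerve. Chrna1 had 26, 3, 683, 368 and 612 counts in control mice and 0 in all Jag antibody mice at 5 d. It was at least 478-fold lower (adjusted p = 0.0123), with no overlap between the groups. Of all genes tested, 3.16% were lower in every Jag antibody mouse than in every control mouse at 5 d. Musk had 13, 0, 39, 28 and 17 counts against 0, 0, 1, 2 and 0, and did not pass (log2 fold change -4.53, SE 1.63, adjusted p = 0.0794).

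Mature muscle RNA differed between the same mice. At 5 d this score stood at 9.90 ± 3.31 (SD, n = 5) in control and at -0.14 ± 1.95 in Jag antibody mice. The difference of -10.04 had an exact two-sided permutation p of 0.00794, the smallest that 5 against 5 mice allow, which is 0.0794 after adjustment over 10 comparisons. The summed level of the 8 fast fibre genes ran from 1018 to 175926 CPM in the control mice and from 0.878 to 43.9 CPM in the Jag antibody mice, without overlap. Of these 8 genes 6 were called lower, as were 6 of the 6 slow fibre genes, beside 5.93% of all genes.

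With the muscle score as a covariate, none of the 7 genes was called at 5 d. The log2 fold change was then -1.17 (SE 1.15, adjusted p = 0.796) for Myod1, -1.77 (SE 1.62, adjusted p = 0.779) for Myog and -0.92 (SE 2.96, adjusted p = 0.952) for Myh3. It was -4.28 for Chrna1 (SE 1.91, adjusted p = 0.396). Myf6 turned to 1.59 (SE 1.33, adjusted p = 0.745). With a spline of the score the adjusted p of the 7 genes lay between 0.086 for Mef2c and 0.88 for Musk, again with none called. Of all 17079 genes, 1369 were called without the score, 89 with the covariate and 110 with the spline. These values rest on 5 Jag antibody mice whose scores all lay below those of the control mice, so score and antibody cannot be fully told apart at this time.

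Leaving out 1 mouse at a time moved the number called at 5 d between 2 and 6. Myh3 and Chrna1 were called in all 10 such fits. Without control mouse 5 or Jag antibody mouse 10 they were the only 2 called, and without Jag antibody mouse 8 there were 3. Without control mouse 3, which held the most Myh3, Myog and Myod1, 4 genes were called and Myf6 was not (adjusted p = 0.0655). Myod1 lost its call without control mouse 5 (adjusted p = 0.0604) and without Jag antibody mice 8 (0.0544) and 10 (0.0574). Myog lost it without control mouse 5 (adjusted p = 0.0519) and Jag antibody mouse 10 (0.0503). Myf6 also lost it without control mouse 5 (adjusted p = 0.11) and without any 1 Jag antibody mouse (0.0736 to 0.0976). When only the 10 mice compared entered the fit, Myf6 alone passed, beside 639 of all 17079 genes.

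**Figure D2:**
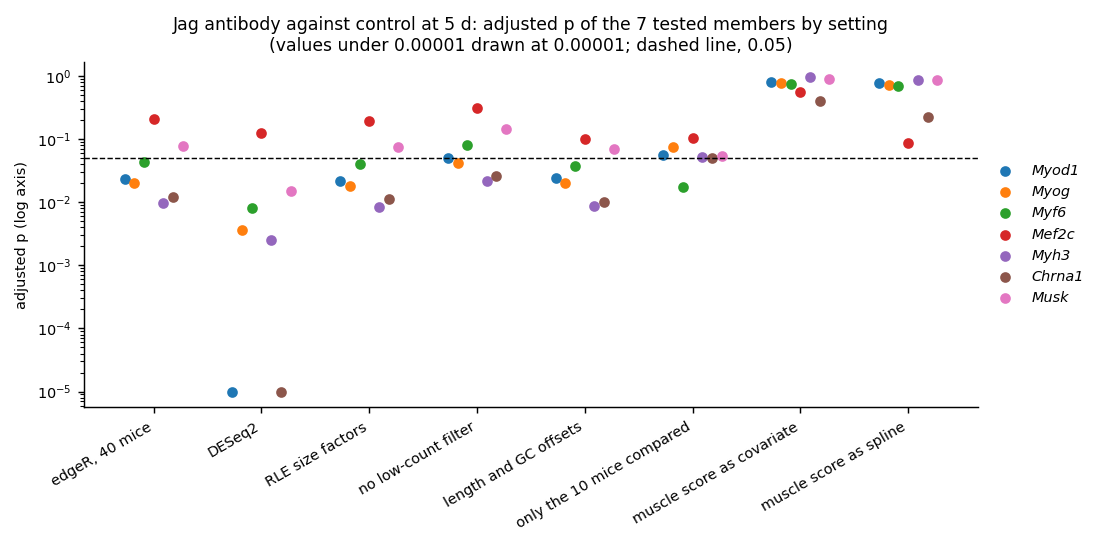
The vertical axis gives the adjusted p (log axis) of each of the 7 tested genes for Jag antibody against control at 5 d, and the horizontal axis gives 8 ways of fitting the model. In the fit of all 40 mice 5 genes lie under the dashed line at 0.05, and with the muscle score as covariate or spline 0 genes do. Of all 17079 genes, 1369, 89 and 110 were called in these fits.

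The regulatory DNA before 4 of these genes is shown as examples of windows that hold letters known to be bound by myogenic factors, with matches in Mef2c and Myh3 given by position only. Of the 10 genes, 8 had an entry in the RefSeq promoter table (GRCm38.p6), and Myod1 and Myf6 had none. Each sequence runs 5′ to 3′ on the strand of the gene, from 250 to 41 bases before its start. Capitals mark matches to the E-box CANNTG, bound by the Myod1 family, or to the MEF2 consensus.
Myog, chr1:134289754-134289963, plus strand: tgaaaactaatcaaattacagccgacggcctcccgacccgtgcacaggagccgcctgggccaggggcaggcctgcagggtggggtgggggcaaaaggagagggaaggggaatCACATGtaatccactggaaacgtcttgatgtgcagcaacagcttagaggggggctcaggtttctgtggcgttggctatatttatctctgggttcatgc
Chrna1, chr2:73580379-73580588, minus strand: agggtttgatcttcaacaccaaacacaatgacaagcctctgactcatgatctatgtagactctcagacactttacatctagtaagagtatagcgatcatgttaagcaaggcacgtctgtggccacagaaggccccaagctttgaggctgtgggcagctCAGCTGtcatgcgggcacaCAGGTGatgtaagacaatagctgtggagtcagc
Musk, chr4:58285712-58285921, plus strand: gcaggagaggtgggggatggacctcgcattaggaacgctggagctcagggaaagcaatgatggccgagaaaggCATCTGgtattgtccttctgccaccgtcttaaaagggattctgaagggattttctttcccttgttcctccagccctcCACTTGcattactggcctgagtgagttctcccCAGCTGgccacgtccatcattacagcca
Myh8, chr11:67276874-67277083, plus strand: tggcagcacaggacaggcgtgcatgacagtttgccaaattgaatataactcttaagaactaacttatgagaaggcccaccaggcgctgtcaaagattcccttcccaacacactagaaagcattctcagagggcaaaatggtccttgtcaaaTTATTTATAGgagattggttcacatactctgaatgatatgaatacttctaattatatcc

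Chrna1 held 2 E-boxes, at -92 and -73, and the first was of the form CAGCTG. Musk held 3, at -177, -100 and -68, and the last was CAGCTG. Mef2c had 3 windows in the table, with E-boxes at -234 and -100 in the first, none in the second and 1 at -245 in the third. Myog held 1 E-box at -138, Myh3 held 1 at -191, and the window of Myh8 held a MEF2 match at -99 and no E-box. The windows of Pax7 and Myf5 held neither. Both strands were searched. Over 32851 promoter windows of 210 bases, 60.7% held an E-box, 10.8% held CAGCTG, whose matches are among the E-boxes, and 2.50% held the MEF2 match. A match describes these letters and is not a measured binding site.

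At 15 h none of the 7 genes was called between Jag antibody and control mice (edgeR, 0 at an unadjusted p under 0.05, also 0 in DESeq2). Over all 17079 genes edgeR called 194 (1.14%), with 2052 at that unadjusted p, and DESeq2 called 555. The highest control value came from mouse 5 for each of the 10 genes. Myf6 had 0, 0, 0, 18 and 164 counts in control mice 1 to 5 and 47, 20, 0, 0 and 35 in Jag antibody mice 6 to 10. Myog had 0, 0, 0, 1 and 16 counts against 6, 3, 0, 0 and 2. Myh3 did not exceed 6 counts in any mouse and Myh8 did not exceed 3. The groups overlapped for each gene.

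At 7 d 1 mouse per group held most of the counts. In the control group mouse 5 had 10 counts of Pax7, 9 of Myf5, 91 of Myod1, 43 of Myog, 15 of Myh3, 10 of Myh8 and 80 of Chrna1, and mice 1 to 4 had 0 of each. In the Jag antibody group mouse 6 had 7 counts of Pax7, 13 of Myf5, 101 of Myod1, 238 of Myog and 1865 of Myf6. The values of Myog in Jag antibody mice 6 to 10 were 238, 0, 0, 4 and 18 counts. None of the 7 genes was called between the antibodies at 7 d (edgeR, 0 at an unadjusted p under 0.05), against 2.5% of all genes. At that unadjusted p stood 3504 of all 17079 genes.

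With hormone at 7 d, Myod1 had 0, 1, 82, 0 and 11 counts in control mice and 14, 3, 0, 0 and 0 in Jag antibody mice. Myf6 had 0, 20, 450, 0 and 192 counts against 290, 22, 0, 0 and 0. Musk had 5, 9, 119, 2 and 68 counts against 20, 9, 1, 1 and 6. The values overlapped, and the antibody comparison called 0 of 7 genes in edgeR (1 at an unadjusted p under 0.05), against 1.14% of all genes. Hormone against no hormone called 0 of 7 in control mice (0 at an unadjusted p under 0.05), where 43.2% of all genes were called. It called 0 of 7 in Jag antibody mice (1 at an unadjusted p under 0.05), where 9.5% were called. The antibody by hormone interaction called 0 of 7 (2 at an unadjusted p under 0.05), and 1 of all 17079 genes (0.00586%). At that unadjusted p stood 2026, 8655, 4603 and 2103 of all genes in these comparisons, in the order given.

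In control mice, Myod1, Myog, Myh3 and Chrna1 rose from 15 h to 5 d. The log2 fold change was 6.81 for Myh3 (SE 1.67, adjusted p = 0.00276), 5.33 for Myog (SE 1.83, adjusted p = 0.0242), 5.10 for Chrna1 (SE 1.74, adjusted p = 0.0237) and 4.61 for Myod1 (SE 1.76, adjusted p = 0.0402). This was 4 of 7 genes, beside 36.4% of all genes called in that comparison, and 16.2% called higher. Myf6 (3.78, SE 2.04, adjusted p = 0.141), Mef2c (0.18, SE 0.75) and Musk (0.03, SE 1.16) did not pass. The muscle score was higher by 7.42 at 5 d (exact permutation p = 0.0556, two-sided). With that score as covariate Musk was the only call and was lower at 5 d (log2 fold change -2.77, SE 0.90, adjusted p = 0.0263). With a spline Mef2c (-1.35, adjusted p = 0.00374) and Musk (-2.40, adjusted p = 0.0209) were lower. Of all 17079 genes, the covariate fit called 4239, with 2331 lower, and the spline fit 2983, with 1723 lower.
Leaving out control mouse 2 or 3 of the 15 h group left 1 call, Myh3, and leaving out control mouse 3 or 5 of the 5 d group left 2. Without control mouse 1 or 4 of the 15 h group there were 3, with Myod1 lost, and without its mouse 5 there were 5. When only these 2 groups entered the fit, 0 of the 7 passed. Nor did any of the 17079 genes, so this fit cannot tell the 7 apart from the rest.

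From 5 d to 7 d in control mice, Myh3 fell by 5.99 on the log2 scale (SE 1.59, adjusted p = 0.0183), the only call among 7 genes, beside 9.13% of all genes, and 4.42% called lower. It had 1413 counts in the group at 5 d and 15 at 7 d, all in mouse 5. Without control mouse 3 of the 5 d group its adjusted p was 0.0787, and without control mouse 2 of the 7 d group it was 0.0573. Leaving out control mouse 5 of the 7 d group gave 4 calls. The muscle score was lower by 6.47 at 7 d (exact permutation p = 0.0556), and with it as covariate Myh3 had an adjusted p of 0.111. These comparisons share the control mice of 5 d with the antibody comparison above.

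In Jag antibody mice, the genes that were at 0 at 5 d were present again in some mice at 7 d. Myog was at least 95.1-fold higher at 7 d and Myod1 at least 40.2-fold higher, with adjusted p of 0.0772 and 0.137. Mouse 6 held 91.5% of the Myog counts and 91.8% of the Myod1 counts of the 7 d group. The muscle score was higher by 4.90 at 7 d (exact permutation p = 0.0397, and 0.139 after adjustment). From 5 d to 7 d edgeR called 0 of 7 genes (7 at an unadjusted p under 0.05). Over all 17079 genes it called 562 (3.29%), with 3078 at that unadjusted p. DESeq2 called 5 of 7, beside 1331 of all genes. Leaving out Jag antibody mouse 8 of the 7 d group gave 1 call. From 15 h to 5 d edgeR called 0 of 7 in Jag antibody mice, beside 2470 of all genes (14.5%). DESeq2 called 2 of 7, beside 3290 of all genes.

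The antibody difference itself was not the same at 7 d as at 5 d for 3 of 7 genes, beside 1.29% of all genes, and 1.17% in that direction. These were Myog (adjusted p = 0.0458), Myh3 (adjusted p = 0.035) and Chrna1 (adjusted p = 0.0405), each with a higher antibody difference at 7 d. With the muscle score as covariate or spline none of the 3 was called (adjusted p of 0.643, 0.751 and 0.610 for Myog, Myh3 and Chrna1 with the covariate), nor was any of the 17079 genes. The muscle score itself was lower by 10.04 with Jag antibody at 5 d and higher by 1.33 at 7 d. Without Jag antibody mouse 6 of the 7 d group 0 passed (adjusted p = 0.317 for Myh3), and without control mouse 3 or 5 of the 5 d group 0 passed. The number was also 0 without Jag antibody mouse 6, 9 or 10 of 5 d and without control mouse 2, 3 or 4 of 7 d. It was 1 without Jag antibody mouse 7 or 8 of 5 d or control mouse 1 of 7 d, 2 without control mouse 4 of 5 d, 5 without control mouse 2 of 5 d and 7 without control mouse 5 of 7 d. For the difference between 5 d and 15 h, edgeR called 0 of 7 (4 at an unadjusted p under 0.05). Over all 17079 genes it called 17 (0.0995%), with 2493 at that unadjusted p. DESeq2 called 2 of 7, beside 498 of all genes.

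Across the 40 mice, taken as deviations from the group means, the level of each tested gene went with the muscle score. Pearson's r was 0.939 for Myf6, 0.802 for Chrna1, 0.799 for Mef2c, 0.797 for Myod1, 0.795 for Myog, 0.774 for Musk and 0.614 for Myh3, and Spearman's rho ran from 0.661 for Myh3 to 0.946 for Myf6. The permutation p adjusted over 7 relations was at most 2e-05. Because the scores fell into separate ranges, the relation was also taken within each. There the group means were not removed and values were permuted without regard to group, so differences between groups enter. Over all 40 mice without removal of group means, r ran from 0.702 for Myh3 to 0.951 for Myf6. Within the 19 mice with a muscle score above 5, r was higher than that 40-mouse value for each gene. It was 0.953 for Myf6, 0.937 for Myod1, 0.936 for Chrna1, 0.93 for Myog, 0.869 for Mef2c, 0.868 for Myh3 and 0.795 for Musk. Spearman's rho ran from 0.835 for Musk to 0.96 for Myf6. The permutation p was 1e-05, the smallest that 100000 permutations give, for r of each gene but Musk (4e-05), and the adjusted p over 7 relations was at most 4e-05. Without control mouse 5 of 5 d and Jag antibody mouse 6 of 7 d, the 2 farthest from the median, r ran from 0.805 for Myh3 and Musk to 0.933 for Myf6.
In the 21 mice with a lower score, r was 0.595 for Myf6 (adjusted p = 0.00812, with 3 of these mice above 0), -0.169 for Mef2c (adjusted p = 0.461) and -0.509 for Musk (adjusted p = 0.062 for r, and 0.0358 for the rho of -0.555). Myod1 and Myog were above 0 in 1 of these 21 mice, so no relation could be read for them. The 19 and 21 mice were separated by their measured score and are not groups of the study.

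**Figure D3:**
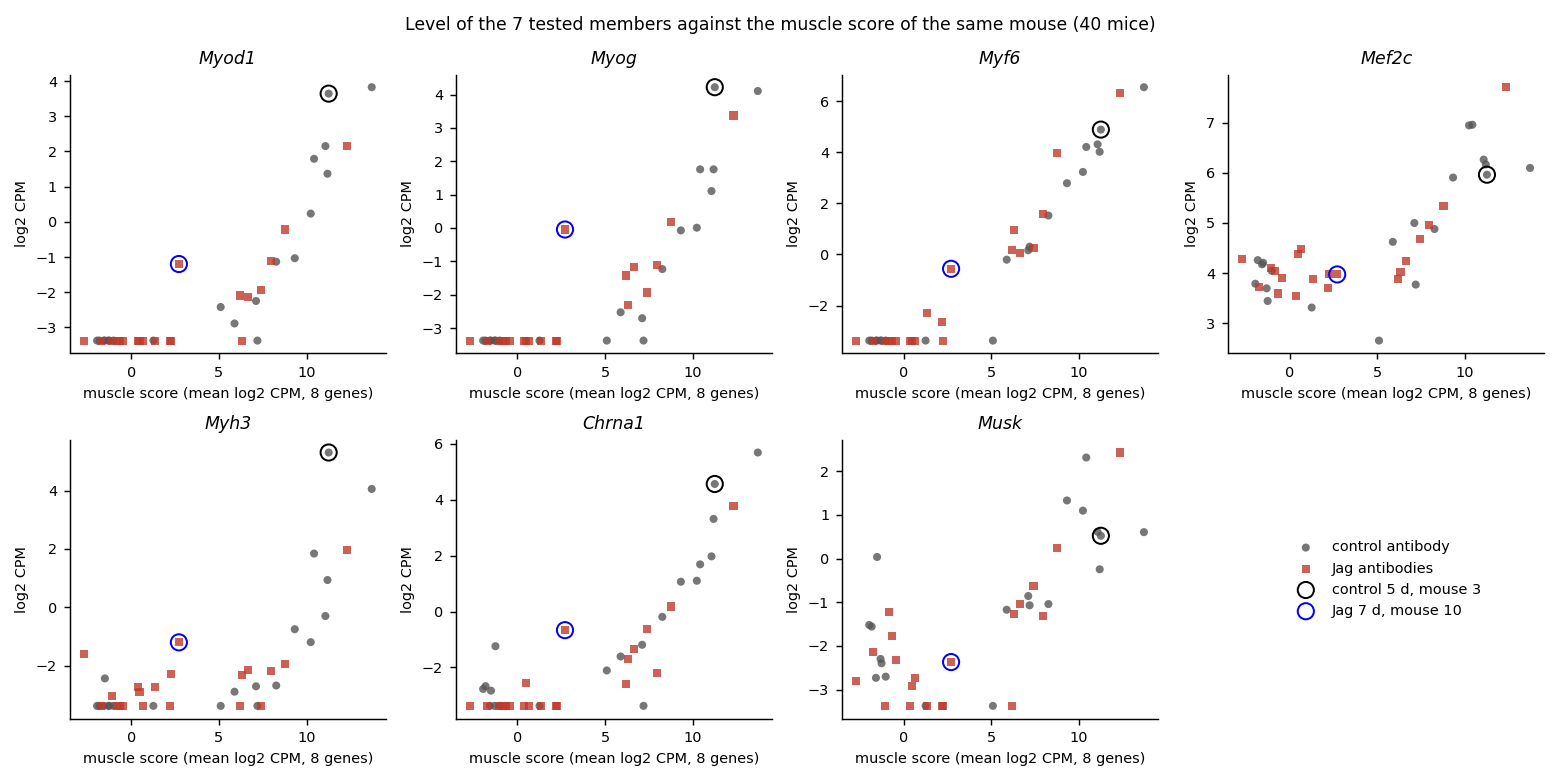
Each panel plots the level of 1 of the 7 tested genes (log2 CPM) against the muscle score of the same mouse (mean log2 CPM of 8 fast fibre genes), with 40 mice as points, circles for control and squares for Jag antibodies. Myf6 follows the score closely (r = 0.953 in the 19 mice above 5), while the ringed control mouse 3 of 5 d and Jag antibody mouse 10 of 7 d lie above the other mice of like score for Myh3 and Myog.

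Set against the fibre genes, Myf6 and the developmental genes varied to different extents. The values below are counts per 100000 counts of the 8 fast fibre genes, in the 21 mice with at least 1000 such counts, with 95% exact Poisson intervals in the plot that cover counting error only. Myf6 had a median of 103, Chrna1 of 25.6 and Myog of 13.2. In the 3 mice with the most fibre counts, control mice 5 and 4 of 5 d and Jag antibody mouse 6 of 7 d, Myh3 was at 9.40, 7.82 and 7.42. Control mouse 3 of 5 d had 157 for Myh3, 92.0 for Myh8, 73.8 for Myog and 93.5 for Chrna1. Its Myf6 ratio, by contrast, lay near the median of the 21 mice. The fusion genes Mymk and Mymx, which myoblasts use to join into fibres, were at 24.2 and 14.1 in that mouse.

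Jag antibody mouse 10 of 7 d had high ratios for many of these genes, over a small number of fibre counts. It had 1223 fibre counts, 18 counts of Myog, 11 of Chrna1 and 7 each of Myod1, Myh3 and Myh8. Its ratios were 1472 for Myog, 899 for Chrna1 and 572 for Myh3, the highest for each of these genes among the 21 mice. Its ratios of 981 for Myf6 and 26329 for Mef2c were also the highest, unlike the Myf6 ratio of control mouse 3 of 5 d. Its Mef2c level, 15.6 CPM, was the median of its group, so that ratio rests on the few fibre counts. Outside this mouse and control mouse 3 of 5 d, the highest ratio among the other 19 mice was 315 for Myf6, 38.7 for Myog, 42.3 for Chrna1 and 25.7 for Myod1. For Myh3 it was 121, from Jag antibody mouse 8 of 7 d with 3 counts. Both mice were singled out after their values were seen.

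The subunits of the acetylcholine receptor were set against the fibre genes in the same way. Chrng encodes the gamma subunit of fetal and denervated muscle, which the epsilon subunit, Chrne, replaces at adult junctions. At 5 d Chrng had 1, 2, 179, 0 and 140 counts in control mice 1 to 5, and Chrne had 9, 2, 82, 64 and 14. Control mice 3 and 5 thus held nearly all of Chrng, and mouse 4 held Chrne with no Chrng. Per 100000 fibre counts Chrng was 24.5 in control mouse 3, 6.68 in control mouse 5 and 8.87 in control mouse 2, the last from 2 counts. It was 0 in Jag antibody mouse 6 of 7 d, which had 1185291 fibre counts and 41 counts of Chrne. Jag antibody mouse 10 of 7 d had 3 counts of Chrng and 0 of Chrne.

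**Figure D4:**
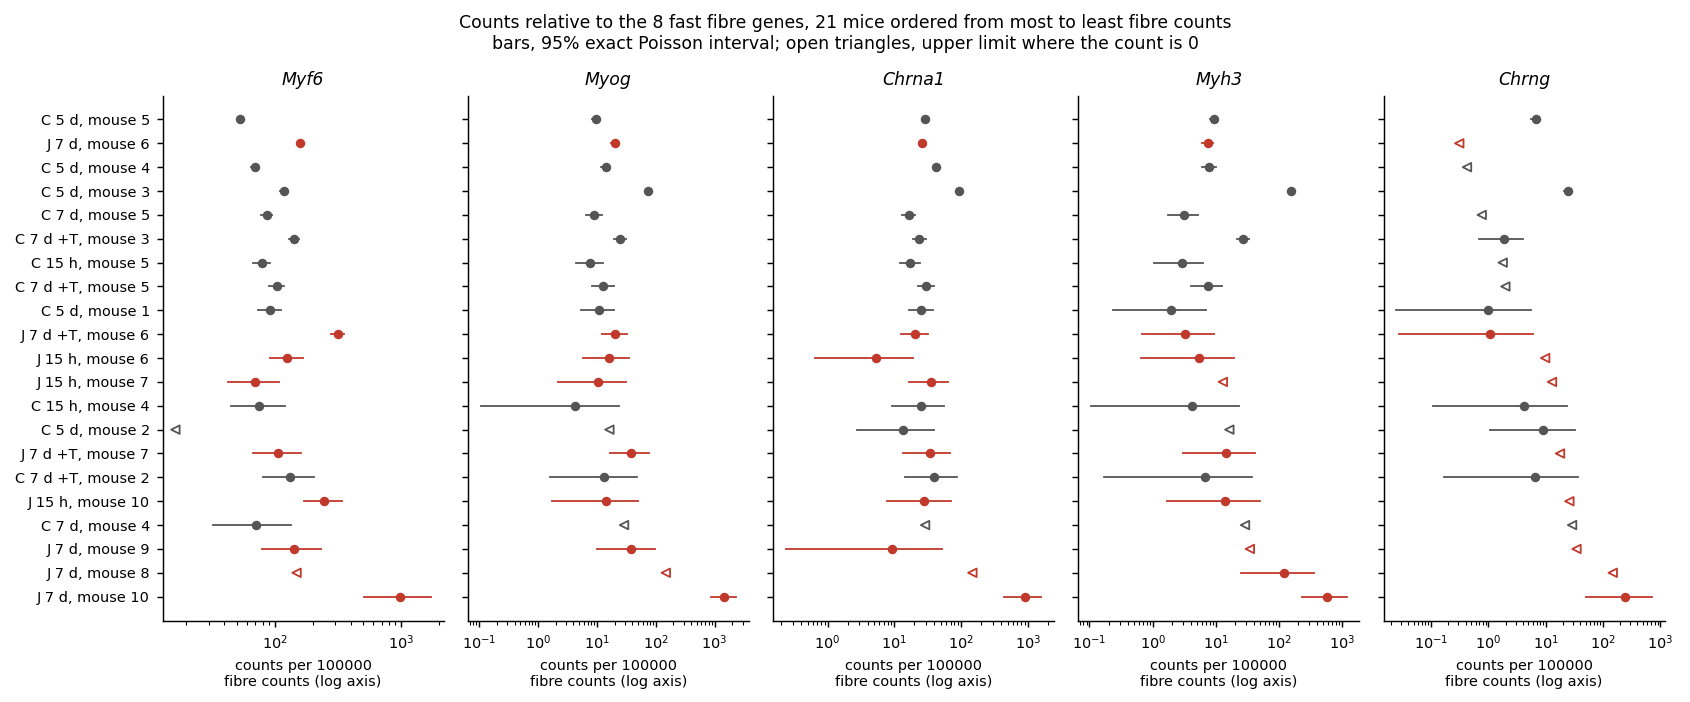
Each panel gives counts of 1 gene per 100000 counts of the 8 fast fibre genes (log axis) in 21 mice, ordered from most to least fibre counts, with 95% exact Poisson intervals as bars and open triangles for the upper limit at a count of 0. Control mouse 3 of 5 d (157) and Jag antibody mouse 10 of 7 d (572) stand to the right for Myh3, and Myf6 stays near its median of 103 in most mice.

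In the 19 mice with under 1000 fibre counts, Myod1, Myog and Myf5 were at 0 in every mouse and Pax7 had 1 count in all. Myf6 had 3 counts in 2 of these mice. Mef2c had 112 to 638 counts there, with a median of 14.9 CPM and a range of 9.84 to 22.2 CPM, so it was present where fibre RNA was low. In the other 21 mice it ran from 6.19 to 209 CPM. Markers of endothelial cells, which also express Mef2c, were present in all groups, at a summed level of 231 to 1164 CPM, and B lymphocyte markers at 1.37 to 67.4 CPM. Over the 40 mice Mef2c had a Spearman's rho of 0.0553 with the endothelial markers, -0.287 with the B lymphocyte markers and 0.411 with the macrophage markers, as a description. In the 19 mice with few fibre counts, rho was 0.270 with the endothelial and 0.330 with the macrophage markers. Musk was above 0 in 14 of the 19 mice and reached 21 counts in control mouse 2 of 15 h.

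Per kilobase of exon, the level of the highest mouse at 5 d in the control group was 74.5 CPM for Myf6, 12.4 for Myog, 11.7 for Chrna1, 7.57 for Myod1 and 6.50 for Myh3. It was 4.57 for Mef2c, 2.27 for Myh8, 0.396 for Myf5, 0.378 for Musk and 0.229 for Pax7. The mean log2 CPM of that group had an SD from 1.33 for Myf5 to 3.91 for Myh8, wider than the steps between most neighbours in this order.

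Of the muscle stem cell and myoblast genes outside the 10, 14 were listed and 9 were tested. At 5 d 6 of the 9 fell with Jag antibody and none rose, beside 5.93% of all genes called lower. The median log2 fold change of the 9 was -3.93, against 0.04 for all genes. With the muscle score as covariate or spline, 89 and 110 of all genes were called at 5 d, against 1369 without it. Cdh15, the cadherin of satellite cells, had 15, 0, 149, 129 and 178 counts in control mice and 0, 0, 0, 0 and 1 in Jag antibody mice (adjusted p = 0.0242). Eya4, a transcriptional cofactor of the muscle lineage, had 68, 3, 94, 179 and 144 counts against 0, 2, 0, 1 and 5 (log2 fold change -5.92, adjusted p = 0.0131). Fgfr4 (-5.12, adjusted p = 0.00838) and Chodl (adjusted p = 0.00788) also fell. Calcr, a marker of quiescent satellite cells that was not tested, had 5, 5, 15, 13 and 2 counts in control mice and 0 in all Jag antibody mice.

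Of the 10 junction genes listed, 8 were tested, with a median log2 fold change of -2.87 at 5 d. Beside 5.93% of all genes called lower, 5 of the 8 fell. They included Colq, the anchor of acetylcholinesterase (-5.98, adjusted p = 0.038), Rapsn, which clusters the receptor (-3.98, adjusted p = 0.00934), Dok7, the activator of Musk (-3.57, adjusted p = 0.0461), and Ache (-2.50, adjusted p = 0.0413). All 3 developmental contractile genes fell: Tnnt2 (adjusted p = 0.00801), Actc1 (-7.78, adjusted p = 0.0131) and Myl4 (-2.66, adjusted p = 0.00316). Of the partners and inhibitors of the myogenic factors (E proteins, Id proteins and other Mef2 genes), 10 were listed, 9 were tested and 0 were called at 5 d, with a median of 0.25.

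From 15 h to 5 d in control mice, 3 of 9 stem cell and myoblast genes, 2 of 8 junction genes and 3 of 3 developmental contractile genes rose, led by Tnnt2 (5.47, adjusted p = 0.00576). Over all genes 16.2% were called higher in that comparison and 36.4% were called, so the first 2 shares are not far from the background. Of the partners, Mef2a (-0.78), Tcf4 (-0.66) and Tcf12 (-0.63) fell. From 5 d to 7 d in Jag antibody mice, 2 of 9 stem cell and myoblast genes, 1 of 8 junction genes and 1 of 3 developmental contractile genes rose. Among them were Eya4 (5.35, adjusted p = 0.035), Rapsn (3.20, adjusted p = 0.0417) and Tnnt2 (adjusted p = 0.0415). Over all genes 3.29% were called in that comparison. Of the 250 counts of Tnnt2 in the Jag antibody mice of 7 d, 237 came from mouse 6. At 7 d without hormone none of these 4 lists had a call between the antibodies. With hormone in control mice 4 of 9 partners were called, a share near the 43.2% of all genes called there: Id1 (-1.46, adjusted p = 0.00143) and Id3 (-1.33, adjusted p = 0.00739) fell, and Tcf4 (0.80, adjusted p = 0.00686) and Mef2a (0.54, adjusted p = 0.0363) rose.

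The genes whose level was most like that of a described gene over the 40 mice were given by Spearman's rho, as a description. Myod1 was most like Myog (0.956). Myog was most like Gm28653 (0.989) and Trim55 (0.981), and Trim55 also ranked second for Chrna1 (0.911). Myf6 was most like Lmod2 (0.953), an actin regulator of sarcomeres. Mef2c was most like Amot (0.875), Myh3 most like Tceal7 (0.824), and Musk most like Synpo2 (0.897) and Eya4 (0.886). All mice share the spread in muscle RNA described above.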

How the data were processed

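Total RNA of brown adipose tissue was sequenced on an Illumina HiSeq as single-end reads, per the labels' protocols. The authors deposited raw counts per Ensembl gene, and the submitters' processing notes name GSNAP and limma. The build, the counting tool and its use of strand are not given in the sources used here. A second deposited table, of FPKM values, was not used. Of 52636 genes, 52403 had a symbol in the table of identifiers, and 17079 passed filterByExpr over 8 groups.

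Counts were tested in 1 model of all 40 libraries with edgeR 4.0.16 (TMM, robust quasi-likelihood test, Benjamini-Hochberg adjustment over all tested genes, threshold 0.05). Levels are log2 CPM with a prior count of 2. A fold against a group at 0 was set against 3 counts over the group, and intervals cover counting error only. Muscle scores were compared by exact permutation and correlations by 100000 permutations. All 10 genes are named in each setting where they bear on it, and up to 4 called genes with the largest change per companion list. Calcr, Chrng, Chrne, Mymk and Mymx were named outside this rule. The 10 genes and the lists were chosen with earlier results of these data known. Nothing says whether the 5 mice of a group were housed or prepared apart, so p-values measure the spread between these samples. Alternatives were DESeq2 1.42.0, other size factors, no filter, fewer groups, the muscle score as a term, length and GC offsets, a replicate block and leaving out each mouse. The tests were tested on simulated data. The results of 1 listed gene are not reported here.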

Additional observations from a re-analysis of the deposited data

Results flagged for a closer look

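Of 73 sets of 5 mice looked at, 14 had 1 mouse set apart from the other 4 by a gap above 0.71 of the range, and chance flags about 1 in 20, or 3.65, where values vary freely. That rate does not apply to 9 of the 14, where the other 4 mice were all at a count of 0. Most came from 2 mice. Control mouse 5 of 7 d was set apart for Pax7 (log2 CPM -0.80), Myf5 (-0.92), Myod1 (2.15), Myog (1.11), Mef2c (6.27), Myh3 (-0.30), Myh8 (-0.80) and Chrna1 (1.97). The nearest other mouse was at the floor of -3.37 for each of these but Mef2c. Jag antibody mouse 6 of 7 d was set apart for Pax7 (-1.33), Myf5 (-0.61), Mef2c (7.71) and Musk (2.43). Control mouse 5 of 15 h was set apart for Myog (0.0087) and Myh8 (-1.91), the latter with 3 counts.

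The antibody difference was tested to change between 5 d and 7 d for 3 genes. On the log2 scale the change was 12.63 for Myog (adjusted p = 0.0458), 9.69 for Myh3 (0.035) and 13.21 for Chrna1 (0.0405), in edgeR's quasi-likelihood test. For Myog and Chrna1 the Jag antibody mice of 5 d were all at 0, so these sizes depend on the prior count and are no bound.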

How the results depend on the processing

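The number of the 7 tested genes called changed with the tool, the groups in the fit, the muscle score and the replicate block. For Jag antibody against control at 5 d (5 called), the number was 1 with only the groups compared. It was 0 with the score as covariate or spline, where Myf6 changed sign (1.59 and 1.53). Of all 17079 genes, these fits called 639, 89 and 110, against 1369 without these changes. Myf6 also lost its call with no low-count filter. For 5 d against 15 h in control mice (4 called) the number was 2 in DESeq2 and 0 with only the groups compared. It was 1 with the covariate and 2 with the spline. These fits called 6953, 0, 4239 and 2983 of all 17079 genes, against 6214 without these changes. Myod1 also lost its call with no low-count filter and with length and GC offsets. For 7 d against 5 d in control mice (1 called) the number was 2 with no filter, beside 818 of 33357 genes. It was 0 with only the groups compared, the covariate or the spline, beside 138, 382 and 385 of 17079 genes. With a replicate block it was 4, without and with offsets, beside 1770 and 2275 genes. Where 0 were called, DESeq2 called 2 for 5 d against 15 h in Jag antibody mice, as did the fit of only those groups. Beside these stood 3290 and 3758 of all 17079 genes. For 7 d against 5 d in those mice DESeq2 called 5, beside 1331 of all genes. The replicate block gave 2 there, without and with offsets, beside 487 and 857. The antibody difference of 7 d against 5 d (3 called) had 6 calls in DESeq2, beside 964 of 17079 genes, and 1 with no filter, beside 63 of 33357. It had 0 with only the groups compared, the covariate or the spline, beside 2, 0 and 0 of all genes. With the replicate block it had 5, without and with offsets, beside 371 and 445 of all genes. The antibody difference of 5 d against 15 h (0 called) had 2 in DESeq2 and 1 with the block and offsets, beside 498 and 137 of all genes.

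Leaving out 1 mouse gave 2 to 6 calls at 5 d, 1 to 5 for 5 d against 15 h and 0 to 4 for 7 d against 5 d in control mice, 0 to 1 for 7 d against 5 d in Jag antibody mice and 0 to 7 for the antibody difference of 7 d against 5 d. It gave 0 to 0 for the other comparisons. The difference in muscle score then ran from -11.24 to -9.09 at 5 d, 0.29 to 3.30 at 15 h, -0.56 to 3.24 at 7 d and -2.95 to 0.15 with hormone between antibodies. For hormone it ran from -0.44 to 2.95 in control and -3.03 to 0.27 in Jag antibody mice. For 5 d against 15 h it ran from 6.34 to 9.35 in control and -5.39 to -2.97 in Jag antibody mice, and for 7 d against 5 d from -8.37 to -5.28 and 3.01 to 6.00. With slow fibre genes the difference in score was -0.46 at 15 h and -0.25 at 7 d, the other sign, and 5.87 for 5 d against 15 h in control mice. The causes were not tested.

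Mice with the same number did not deviate together in every pair (correlations from -0.54 to 0.70, means 0.0859 to 0.208). Per pair of groups, 1 to 4 of 5 mice were most like the mouse with their own number. The number was not taken to pair mice in the main fit, and the replicate block changed some calls, as given above. No paired analysis was possible because control and Jag antibody mice share no numbers, in the antibody comparisons. Low counts limit Pax7 and Myf5, which did not exceed 23 and 29 counts in any mouse.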
